A study of Mus musculus with 2 samples.

Results

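The cells described here are 157 cells with transcripts of Fn1, Vim or both and no transcript of Pdgfra, found in a section of mouse intestine. They are called stromal cells by these markers. They were chosen by measured values, in region 1 of the female animal (replicate 2), from cells with at least 10 transcripts of the 140 panel genes. Each had at least 3 transcripts of Fn1 and Vim together, none of Pdgfra, at most 1 of Des and at most 2 of Aqp8 and Slc26a3 together. They made up 12.5% (exact binomial 95% interval 10.7 to 14.5) of the 1256 cells with at least 10 panel counts in that region. The region held 13707 cells, and the study 31893 cells in 4 regions. The remaining 1099 cells of at least 10 counts in the same region served as the comparison.

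The study imaged duodenum and colon of 2 C57Bl6 mice, 1 male and 1 female, aged 6 to 10 weeks per the sample labels. Sections of 10 µm were cut from tissue fixed in paraformaldehyde and frozen, and were read with MERSCOPE, an imaging method that counts single RNA molecules of a chosen gene panel in each segmented cell. The labels name no treatment, transgene or mutation for either animal. No label assigns a region to duodenum or to colon, so the tissue of the 157 cells cannot be told.

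Stromal cells of the gut wall fill the space between epithelium, vessels, nerves and muscle. They lay down matrix such as fibronectin, the product of Fn1, and carry the intermediate filament vimentin, the product of Vim. Many intestinal fibroblasts, and the telocytes lying under the epithelium, carry the growth factor receptor PDGFRα, which other stromal cells show weakly or not at all. Vimentin is also present in endothelial cells, pericytes, glia and many immune cells, so Vim alone does not name a fibroblast.

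All the cells came from 1 section of 1 animal, so there was no replicate and no test, and the intervals below are exact 95% intervals that cover counting error only. In the 3 other regions no cell met the criteria. Those regions held 55 and 4 cells of at least 10 counts in the male and 77 in region 0 of the female, and 0 cells there allows shares of up to 6.49%, 60.2% and 4.68%, the upper limits of the exact binomial 95% intervals. In none of these cells did Fn1 and Vim together exceed 1 count. The 3 regions held 5, 10 and 23 counts of Fn1 over all their cells, against 3813 in region 1 of the female. The 4 regions held 3048, 582, 4288 and 45942 panel counts in the order male 0, male 1, female 0 and female 1, and they shared no cell barcodes.

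The criteria removed cells step by step. Of the 1256 cells, 271 had at least 3 counts of Fn1 and Vim, 264 of these had at most 2 counts of the epithelial transport genes Aqp8 and Slc26a3, and 215 also had at most 1 count of the muscle filament gene Des. Of these 215 cells, 157 had no Pdgfra count, and the other 58 are called Pdgfra-positive stromal cells below. For levels side by side, further groups were 93 muscle cells (at least 3 counts of Des with at most 2 of Aqp8 and Slc26a3) and 542 transport epithelial cells (at least 3 counts of Aqp8 and Slc26a3).

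The 157 cells were shallow, with a median of 13 panel counts per cell (range 10 to 43), against 16 (10 to 130) in the other cells. Fn1 gave 29.9% of their counts and Vim 11.2%, and both together 41.1%, against 4.47% in the other cells. These shares follow from the criteria and are given as description. Many cells lay just inside or just outside a limit: 33 of the 157 cells had exactly 10 counts and 42 cells that met the other criteria had 9. There were 43 cells with exactly 3 counts of Fn1 and Vim and 49 with 2, 17 cells with 1 count of Des and 8 with 2, and 35 cells left out for a single Pdgfra count.

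Fn1 was the more frequent of the 2 defining transcripts. It was counted 679 times in the 157 cells (median 3 per cell, highest 21), and Vim 255 times (median 1, highest 10). Both genes were present in 95 cells (60.5%, 52.4 to 68.2), Fn1 without Vim in 51 (32.5%, 25.2 to 40.4) and Vim without Fn1 in 11 (7.01%, 3.55 to 12.2). The criteria used these 2 genes, so their counts and shares are given as description. Over all cells of the region Fn1 also exceeded Vim, at 3813 against 1169 counts. At this depth a part of the 157 cells showed no Vim.

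**Figure D1:**
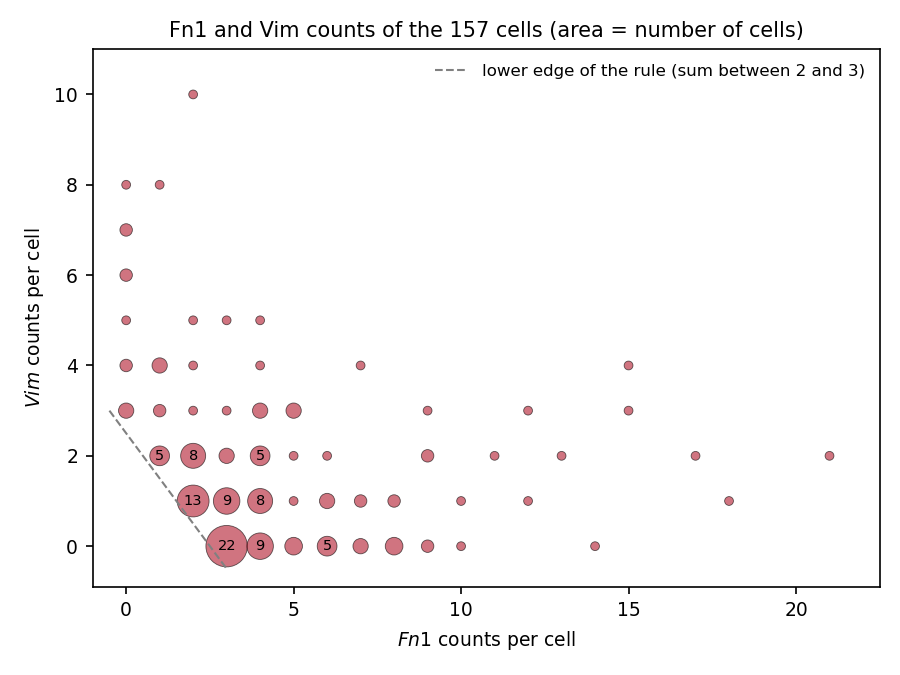
Counts of Fn1 (x axis) and Vim (y axis) in each of the 157 cells, with the area of a circle giving the number of cells at that pair of counts and the dashed line the lower edge of the rule. Most cells lie near that edge and along the Fn1 axis, and 11 cells with Vim and no Fn1 lie on the left edge.

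For all other genes, levels are given as counts per 10000 counts of the 134 genes outside the criteria. The 157 cells held 1296 such counts, the other cells 15505 and the Pdgfra-positive cells 475. The highest of the 40 blank barcodes, which match no gene, had 3 counts in the 157 cells, and 63 of the 134 genes lay above it. In the 1099 other cells the highest blank had 35 counts. Of the genes named below, Abca8a (18), Olfm1 (22), Matn2 (28) and Zeb2 (34) had no more than that there. The same held for Cav1 (35), Sema6d (34), Col8a1 (33), Ror2 (35), Cacna1c (33), Slit2 (11) and Lama2 (7). It also held for Robo2 (8), Gfap (7), Syt1 (21), Chrna3 (10) and Abcc9 (15). Ratios of these genes to the other cells thus rest on a comparison level within the blanks. In transport epithelial cells the highest blank had 30 counts, above Slit3 (7), Piezo1 (8), Kcnn4 (5) and Tgfbr3 (19). A gene was compared where both sides together had at least 30 counts, and was called where its level differed at least 2-fold.

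Against the other cells, 27 of 74 compared genes were at least 2-fold higher (36.5%) and 18 were at least 2-fold lower (24.3%), with a median ratio of 1.26. All 27 higher genes had more counts in the 157 cells than the highest blank had there. For 2 of them, Col8a1 and Ror2, the interval of the ratio included 1. Of the 18 lower genes, 10 had at most 2 counts in the 157 cells, which is below the highest blank, and for 11 the interval included 1. Genes of matrix proteins, guidance molecules, growth factor receptors and mechanosensitive channels were among the higher ones, and the epithelial genes Ezr, Shroom3 and Gucy2c among the lower ones. Because transport epithelial cells made up 542 of the 1099 other cells, the ratios were also taken against the 557 other cells with at most 2 counts of Aqp8 and Slc26a3, called the non-transport cells below. There 26 of the 27 higher genes still lay above 1 and 13 were at least 2-fold higher, with no minimum count applied. All 18 lower genes lay below 1, and 11 of them were at least 2-fold lower. Of the 54 genes with enough counts for a call against the non-transport cells, 10 were called higher and 9 lower.

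**Figure D2:**
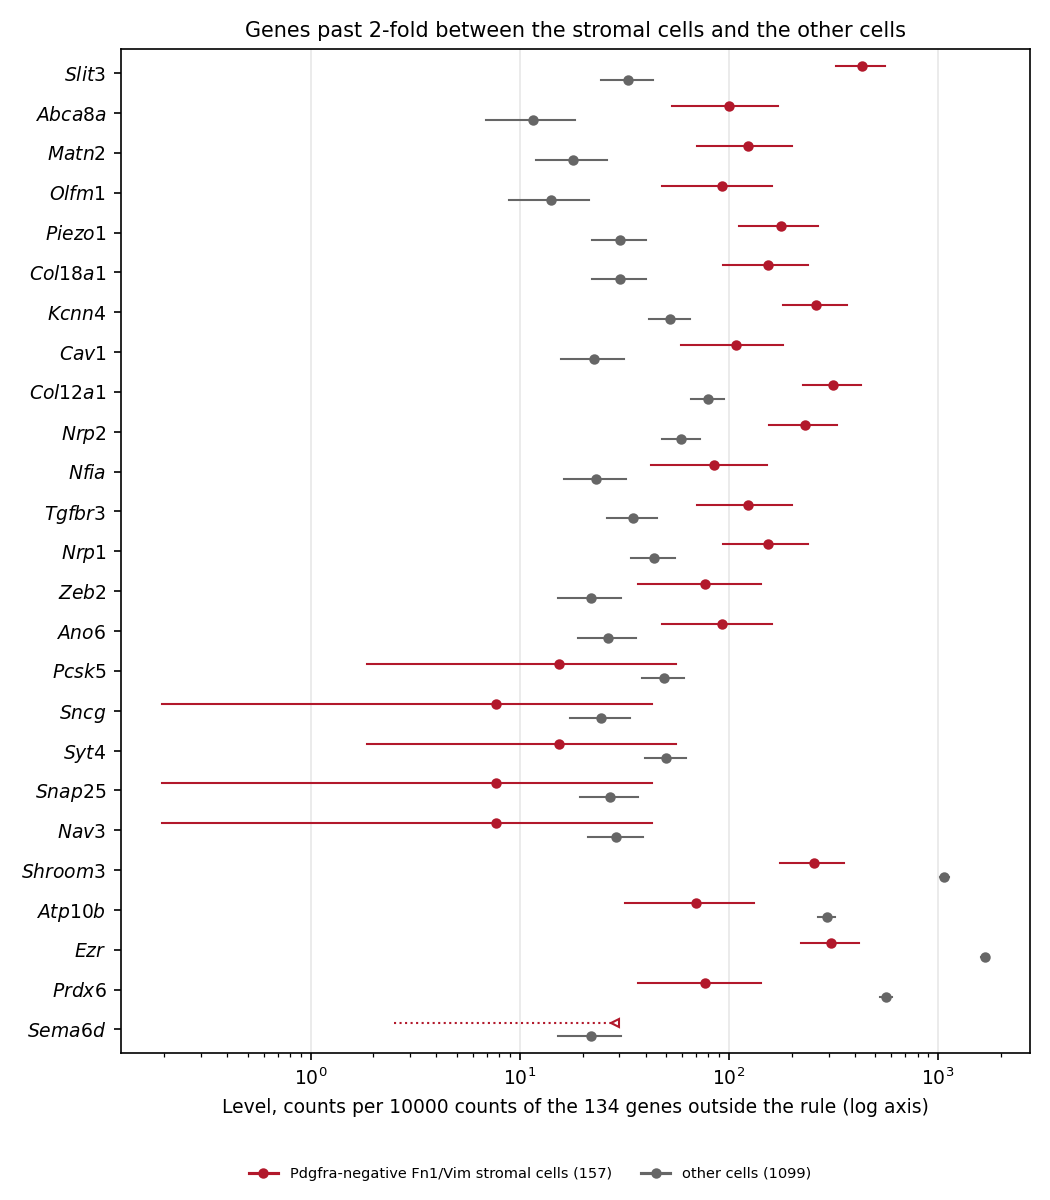
Levels (x axis, log scale) of the 15 genes with the highest and the 10 with the lowest ratio in the 157 stromal cells (red) and the 1099 other cells (grey), as points with exact Poisson 95% intervals; an open triangle with a dotted line marks the upper limit of a gene with no count. The red intervals of Slit3, Piezo1 and Kcnn4 lie to the right of the grey ones, and those of Ezr, Shroom3 and Prdx6 to the left.

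Slit3, a secreted guidance ligand of ROBO receptors, had the highest ratio of all compared genes. It was counted 56 times in 28 of the 157 cells (17.8%), with a level of 432 per 10000 (326 to 561) against 32.9 in the other cells, 112 in muscle cells and 7.61 in transport epithelial cells. The ratio to the other cells was 13.1 (8.83 to 19.6), and 6.20 against the non-transport cells. A single cell held 9 of the 56 counts, and the ratio without it was 11.1. With every cell thinned to 10 panel counts, 14.6% of the 157 cells and 2.82% of all other cells kept a Slit3 count. The shares were 5.17% in Pdgfra-positive cells and 0.185% in transport epithelial cells. At the limits of the criteria, the level was 376 per 10000 in members with 10 panel counts and 420 in those with 1 Des count. In members with 3 counts of Fn1 and Vim it was 198. Slit2, the other SLIT ligand on the panel, had 4 counts in the 157 cells and 11 in the others.

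The neuropilins, co-receptors for semaphorins and VEGF, were higher too. Nrp2 was counted 30 times in 25 cells, with 231 per 10000 against 59.3 (ratio 3.90, 2.49 to 5.95), and Nrp1 20 times, with 154 against 43.9 (3.52, 2.02 to 5.86). Against the non-transport cells they stood at 1.72 (1.09 to 2.63) and 1.87 (1.06 to 3.19), below the 2-fold limit. Of the 10 guidance genes on the panel, 7 reached 30 counts, of which Slit3, Nrp1 and Nrp2 were higher and 1, the semaphorin Sema6d, was lower; the 3 higher of 7 compare with 36.5% of all genes compared. Sema6d had no count in the 157 cells, where 3 counts would be 23.1 per 10000, and 21.9 per 10000 in the other cells, so a difference was not detectable at this depth. Robo2, a SLIT receptor, also had no count.

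Matrix genes formed the next group. Col12a1, a collagen that associates with fibrils, was counted 41 times in 29 cells, with 316 per 10000 against 79.3 (3.99, 2.73 to 5.72), and its ratio to the non-transport cells was just under the limit (1.996, 1.35 to 2.90). Col18a1, a collagen of basement membranes, was counted once in each of 20 cells, with 154 against 30.3 (5.09, 2.86 to 8.76). Matn2, a matrilin that links matrix fibres, reached 123 against 18.1 (6.84, 3.46 to 13.1). Lama2, a laminin chain of basement membranes, had 7 counts in the 157 cells and 7 in the 1099 others, too few for a call, and its levels were 54.0 and 4.51. Of the matrix list, 3 genes outside the criteria were on the panel, and Col12a1 and Col18a1, the pair compared, were both higher. Of all genes compared, 36.5% were higher, so a list of 2 genes says little.

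Among growth factor receptors, Fgfr1 was counted 34 times in 31 cells, at 262 per 10000 against 78.0 (3.36, 2.23 to 4.95). Tgfbr3, the TGF-β co-receptor betaglycan, was counted once in each of 16 cells, at 123 against 34.8 (3.54, 1.89 to 6.29). Egfr, the EGF receptor gene, was the lower one of the 3 list genes compared, on 2 counts and with an interval that included 1 (0.332, 0.0395 to 1.24). The 2 higher of these 3 compare with 36.5% of all genes compared. Fgfr1 stood at 245 per 10000 in muscle cells and Tgfbr3 at 112, and in transport epithelium they stood at 44.6 and 20.7.

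Of the mechanosensitive channel genes of the panel, Piezo1 was at least 2-fold higher against all other cells and against the non-transport cells, and Piezo2 against all other cells only. Piezo1 was counted 23 times in 18 cells, at 177 per 10000 against 30.3 (5.85, 3.39 to 9.84). Its level was 40.8 in muscle cells and 8.70 in transport epithelial cells. The muscle level rests on 4 counts, no more than the highest blank in muscle cells (4). Piezo2 was counted 11 times in 8 cells, at 84.9 against 38.7 (2.19, 1.04 to 4.21). Against the non-transport cells Piezo1 was at 2.87 (1.64 to 4.93) and Piezo2 at 1.41 (0.650 to 2.81), and in cells with 5 to 9 counts Piezo2 turned to 0.723 (0.144 to 2.24). Only 1 cell held both channels.

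Several other genes of the 157 cells passed the limit. Abca8a, a lipid transporter gene, had 13 counts, at 100 per 10000 against 11.6 (8.64, 3.89 to 18.7). Olfm1, a secreted glycoprotein gene, had 12 (6.53, 2.94 to 13.8), and Cav1, the main protein of caveolae, had 14 (4.79, 2.38 to 9.12). The transcription factor genes Nfia and Zeb2 had 11 and 10 counts (3.66, 1.68 to 7.34, and 3.52, 1.55 to 7.28), and the scramblase gene Ano6 had 12 (3.50, 1.68 to 6.79). Against the non-transport cells, Nfia stood at 1.85 and Ano6 at 1.54, with intervals that included 1 (0.832 to 3.81 and 0.731 to 3.01).

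Further down, Prickle2, a planar polarity gene, was at 193 per 10000 against 65.8 (2.93, 1.81 to 4.58), and Stard13 at 262 against 129 (2.03, 1.37 to 2.94). Both fell under the limit against the non-transport cells, at 1.76 (1.07 to 2.82) and 1.37 (0.906 to 2.02). Pfn1 and Ctnnb1, a profilin and β-catenin, are used by most cells and had 83 and 65 counts, with ratios of 0.961 (0.759 to 1.20) and 0.783 (0.600 to 1.01). Their intervals leave out a 2-fold difference.

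Kcnn4, a calcium-activated potassium channel gene, was higher in the 157 cells although it was fixed in the epithelial list. It was counted 34 times in 24 cells, at 262 per 10000 against 52.2 (5.02, 3.26 to 7.58). It had no count in the 93 muscle cells and 5.44 per 10000 in transport epithelial cells, while the non-transport cells had 120 per 10000, for a ratio of 2.18 (1.41 to 3.30). Cftr, the chloride channel gene of crypt epithelium, was on the panel as well and had 2 counts in the 157 cells.

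Genes of epithelium were lower. Ezr, which links the apical membrane to actin, was counted 40 times in 29 of the 157 cells, at 309 per 10000 against 1679 in the others, where it was 5.44-fold higher (3.98 to 7.63). Against the non-transport cells the ratio was 0.512 (0.360 to 0.711), short of 2-fold. Shroom3, which drives apical constriction, was counted 33 times in 24 cells, at 255 against 1073 (0.237, 0.163 to 0.335). Prdx6, a peroxiredoxin gene, was 7.35-fold higher (3.98 to 15.4) in the other cells, at 567 against 77.2, and the flippase gene Atp10b 4.24-fold higher (2.22 to 9.34). Against the non-transport cells Shroom3 stood at 0.394 (0.267 to 0.562), Prdx6 at 0.468 (0.218 to 0.896) and Atp10b at 0.374 (0.167 to 0.736). Gucy2c, the guanylin receptor of the epithelium, had 8 counts (0.344, 0.147 to 0.688). Of the epithelial list, 6 genes outside the criteria were compared, of which 3 were lower and Kcnn4 was higher. Of all genes compared, 24.3% were lower and 36.5% higher.

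Epithelial transcripts were still present in the 157 cells. The list summed to 972 per 10000, against 3102 in the other cells, 3953 in transport epithelium, 884 in the Pdgfra-positive cells and 214 in muscle cells. At least 1 of these counts lay in 74 of the 157 cells (47.1%) and at least 2 in 27. Transcripts of adjacent cells may be assigned to a segmented cell; this was not corrected, and the part of the epithelial counts in the results was not tested. With those 27 cells left out, all 27 higher genes remained at least 2-fold higher than in the other cells, Kcnn4 at 2.37. Kcnn4, Ezr, Shroom3 and Gucy2c are in the list that chose those cells, so their values are lowered by that choice.

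Of the smooth muscle list, 2 genes outside the criteria were compared, Dmpk and Cacna1c, and neither was called. Dmpk gave 100 of the list's 103 counts in the 157 cells. Dmpk, a kinase gene high in muscle, was counted 100 times in 58 of the 157 cells (36.9%), with 9 in a single cell. Its level was 772 per 10000 (628 to 938.5), against 3633 in muscle cells, 505 in Pdgfra-positive cells and 60.9 in transport epithelium, and the ratio to all other cells was 1.95 (1.56 to 2.41). Against the non-transport cells, which include the muscle cells, it was 0.874 (0.699 to 1.08). The calcium channel gene Cacna1c had 3 counts, no more than the highest blank in the 157 cells. Its level was 23.1 per 10000 against 21.3 in the other cells (1.09, 0.213 to 3.47) and 184 in muscle cells. Of the 157 cells, 21 had at least 2 Dmpk counts and held 63 of the 100. Among those 21 cells, 9 had the single Des count that the criteria allow (42.9%), against 8 of the other 136 (5.88%). The ratios of Slit3 and Kcnn4 to the other cells were 14.3 and 5.81 without those 21 cells.

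Markers of the other cell types that vimentin could come from were mostly not on the panel. None of the 18 immune genes and none of the 3 genes of interstitial cells of Cajal listed was measured, and of the pericyte list only Abcc9, with 1 count. The endothelial list was represented by Col18a1, Nrp1 and Nrp2, none specific to endothelium. All 3 were higher, as were 36.5% of all genes compared. Endothelial, pericyte, immune and fibroblast cells can therefore not be told apart here. Enteric glia genes gave 10 counts in 10 cells (77.2 per 10000 against 71.6 in the others), with Gfap at 0. Neuronal genes gave 7 counts in 7 cells (54.0 against 148), with Syt1 and Chrna3 at 0.

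The closest cells were the 58 Pdgfra-positive stromal cells, with a median of 14 panel counts. With only 475 counts outside the criteria in that group, 19 genes could be compared. In the 157 cells 3 genes were at least 2-fold higher (15.8%) and 1 was at least 2-fold lower (5.26%), with a median ratio of 0.959. Slit3 was the gene with the largest ratio, 432 per 10000 against 126 on 6 counts (3.42, 1.48 to 9.72), or 2.90 without the cell with 9 counts. It was counted in 5 of the 58 Pdgfra-positive cells (8.62%), against 17.8% of the 157 cells. Kcnn4 was at 262 against 126 (2.08, 0.862 to 6.05), and Cracr2a, a calcium sensor gene, at 224 against 105 (2.13, 0.814 to 7.03), so for both the interval included 1. Ptprk, a receptor phosphatase gene, was at 193 against 463 (0.416, 0.225 to 0.775).

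Other stromal genes were not called between those groups. Col12a1 was at 316 per 10000 in the 157 cells and 547 in the Pdgfra-positive cells (0.578, 0.345 to 0.984), below a 2-fold difference. Piezo2 was at 84.9 against 274 (0.310, 0.126 to 0.750) on 24 counts in all, too few for a call, whereas Piezo1 was at 177 against 211 (0.843, 0.386 to 1.98). Fgfr1, Nrp1, Nrp2, Col18a1 and Matn2 had intervals that included 1 (ratios 0.779, 1.22, 1.00, 0.916 and 0.977), as had Dmpk (1.53, 0.970 to 2.49). Their intervals allow differences of more than 1.5-fold in at least one direction, so similarity is not shown either.

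**Figure D3:**
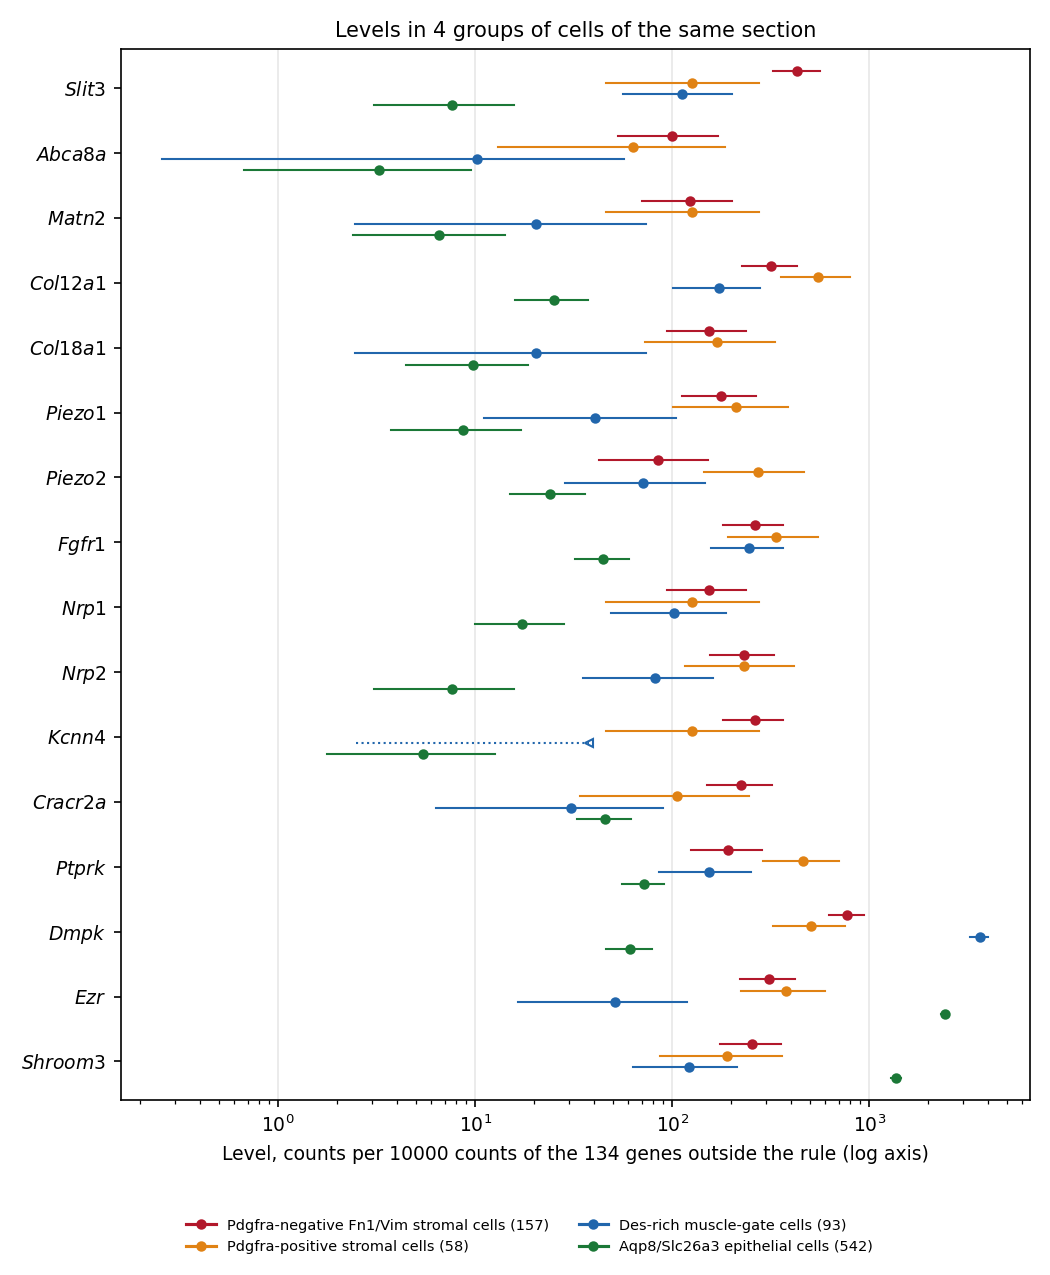
Levels (x axis, log scale) of 16 genes in the 157 Pdgfra-negative stromal cells (red), the 58 Pdgfra-positive stromal cells (orange), the 93 muscle cells (blue) and the 542 transport epithelial cells (green), as points with exact Poisson 95% intervals; an open triangle marks the upper limit of a gene with no count. Slit3 is highest in the red group, Col12a1, Piezo2 and Ptprk in the orange group, Dmpk in the blue group, and Ezr and Shroom3 in the green group.

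A count of 0 in a shallow cell does not show that a gene was not expressed. Of the 215 stromal cells, 157 had no Pdgfra count (73.0%, 66.6 to 78.8), with 91 Pdgfra counts over the group. The share was 78.9% (71 of 90) in cells with 10 to 12 panel counts, 66.2% (45 of 68) with 13 to 16 and 71.9% (41 of 57) with 17 or more, and all 3 intervals overlapped. By Fn1 and Vim counts it was 75.4% at 3, 70.4% at 4 to 5 and 73.6% at 6 or more. Cells with at least 1 Slit3 count had none in 28 of 33 cases (84.8%, 68.1 to 94.9), against 129 of 182 (70.9%, 63.7 to 77.4) without Slit3. Outside the stromal criteria, 131 of 1041 cells had a Pdgfra count, among them 58 of the 542 transport epithelial cells.

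**Figure D4:**
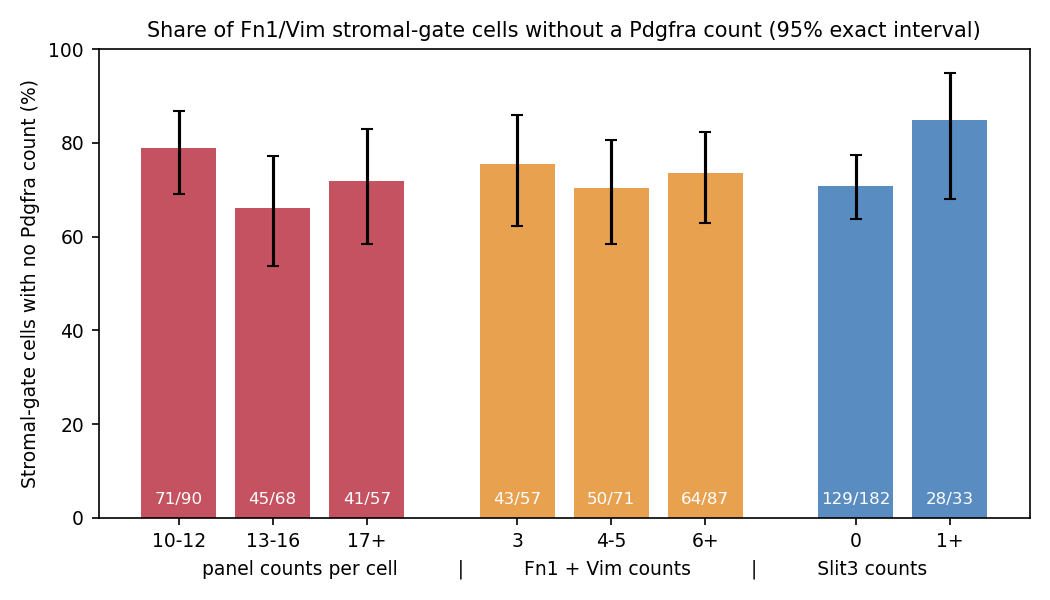
Share of the 215 stromal cells with no Pdgfra count (y axis, percent) by panel counts per cell, by Fn1 plus Vim counts and by Slit3 counts, as bars with exact binomial 95% intervals and the cell numbers at their foot. The bars lie between 66.2% and 84.8% and their intervals overlap within each set.

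Within the 157 cells, 3 of 22 genes compared had intervals of the ratio that excluded 1 when the cells were divided by the balance of the defining genes. In 119 cells Fn1 exceeded Vim, and in 38 Vim was at least as high as Fn1, with 984 and 312 counts outside the criteria. Kcnn4 was at 513 per 10000 in the cells with more Vim and 183 in those with more Fn1 (2.80, 1.34 to 5.82). Col12a1 was at 128 against 376 (0.341, 0.0883 to 0.949) and Cracr2a at 64.1 against 274 (0.234, 0.0269 to 0.930), on 4 and 2 counts in the smaller group. Slit3 was at 481 against 417 (1.15, 0.593 to 2.13). The 22 genes had at least 20 counts in the 157 cells, and those named were picked with their values known.

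**Figure D5:**
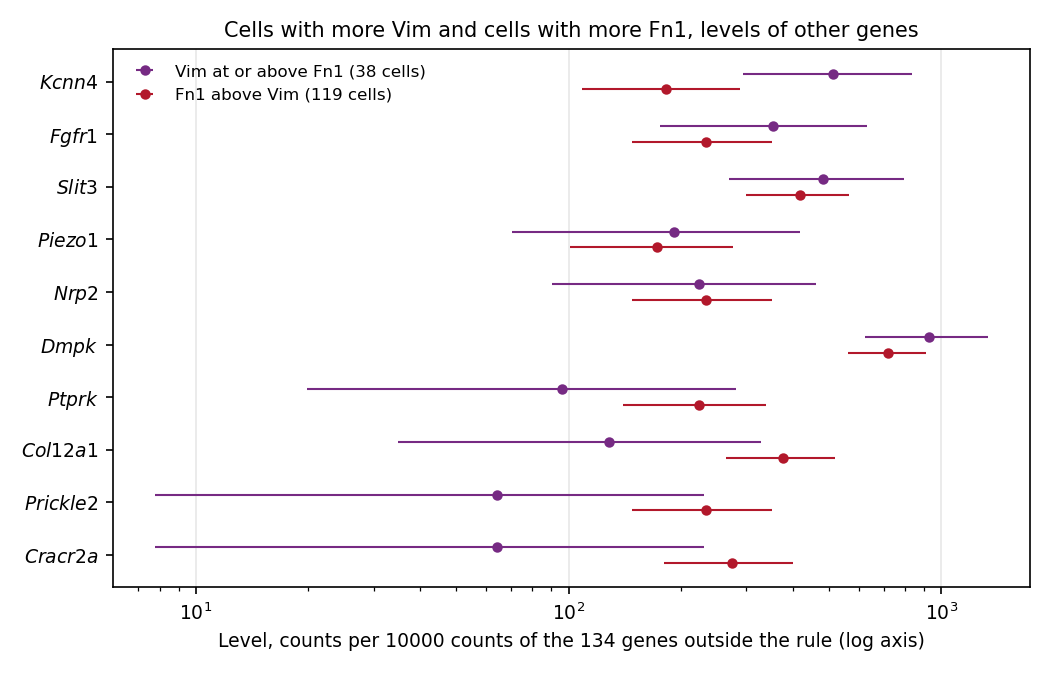
Levels (x axis, log scale) of 10 genes in the 38 cells with Vim at or above Fn1 (purple) and the 119 cells with Fn1 above Vim (red), as points with exact Poisson 95% intervals. Kcnn4 lies to the right in the purple group and Col12a1 and Cracr2a to the left, while the intervals of Slit3, Piezo1 and Nrp2 overlap widely.

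The cells were also divided by Slit3, by Kcnn4 and by Dmpk (at least 2 counts), with 21 genes compared in each case. Intervals excluded 1 for 3, 2 and 1 genes, which are given here because of their values. In the Dmpk split the gene was Pfn1, lower in the 21 cells with at least 2 Dmpk counts (0.272, 0.0549 to 0.823). In the 28 cells with Slit3, Piezo1 was at 408 per 10000 against 131 in the other 129 cells (3.12, 1.23 to 7.71), with both genes in 5 cells. Those cells had 1 of the 33 Shroom3 counts (0.127, 0.00312 to 0.760) and none of the 25 Ptprk counts. The 24 cells with Kcnn4 had less Dmpk (0.266, 0.0710 to 0.703) and more Pfn1 (1.89, 1.07 to 3.20), and Slit3 and Kcnn4 were found together in 3 cells. For these splits the gene that made the split was left out of the denominator.

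Cells with 5 to 9 panel counts, which the criteria had left out, gave values for the same genes in other cells of the same section. Of 1651 such cells, 184 (11.1%) met the other criteria, and they held 592 counts outside the criteria. Of the 27 higher genes, 16 were again above 1 and 10 at least 2-fold higher, with no minimum count applied. Of the 18 lower genes, 14 were below 1 and 10 at least 2-fold lower. The share of all genes above or below 1 was not taken in these cells, so these numbers have no background to be judged against. Of the 54 genes with enough counts for a call there, 11 were called higher and 10 lower. Slit3 was at 422 per 10000 against 105 (4.02, 2.45 to 6.39), Col12a1 at 456 against 154 (2.96, 1.87 to 4.54), Piezo1 at 236 against 85.5 (2.77, 1.43 to 5.00) and Fgfr1 at 439 against 161 (2.73, 1.71 to 4.20). Abca8a stood at 5.17 (2.08 to 11.8), Shroom3 at 0.211 (0.0907 to 0.420) and Ezr at 0.368 (0.209 to 0.603).

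For other genes the direction turned in these shallower cells. Kcnn4 was at 0.868 (0.388 to 1.70), Tgfbr3 at 0.723 (0.144 to 2.24), Zeb2 at 0.689 (0.0803 to 2.68) and Olfm1 at 0.753 (0.0180 to 4.85), on 9, 3, 2 and 1 counts. Against shallow Pdgfra-positive cells, Slit3 stood at 2.07, while Kcnn4 (0.745), Cracr2a (0.290) and Ptprk (1.24) lay on the other side of 1. Only 2 genes had enough counts to be compared there, and 0 were called. Slit3 and Cracr2a, with ratios past the 2-fold limit, thus had too few counts for a call. The direction of Kcnn4, Cracr2a and Ptprk between the stromal groups therefore rests on the cells of at least 10 counts. For Slit3 the direction was the same in the shallow cells, but a difference was not established there.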

How the data were processed

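The authors deposited, per the file headers, 1 table per region with the count of transcripts of 140 genes and 40 blank barcodes in each segmented cell. Seurat is listed in the submitters' processing notes without version or role. How transcripts were decoded, cells segmented and cells filtered is not given in the sources used. No doublets were removed and no coordinates were used. All 140 symbols were found in the RefSeq gene table.

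The members and gene lists were chosen with earlier results of these data known. Panel counts were summed without blanks. Levels are summed counts per 10000 counts of the 134 genes outside the 6 genes of the rule. Intervals were exact Poisson for levels, exact conditional binomial for ratios and exact binomial (Clopper-Pearson) for shares. A gene was called at a ratio of at least 2 or at most 0.5 with at least 30 counts over both sides, and the calculation was checked on simulated counts. Named genes were up to 15 with the highest and 10 with the lowest ratio to the other cells, up to 8 in each direction against Pdgfra-positive cells, and list members with at least 30 counts; others were named after their values were seen. Alternatives changed the cell criteria, denominator, depth and comparison cells, with 6 added after seeing the data. Python 3.11.15, numpy 2.4.6, pandas 2.3.3, scipy 1.17.1 and matplotlib 3.10.9 were used.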

Additional observations from a re-analysis of the deposited data

How the results depend on the processing

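Depth limits these results: the 157 cells held 1296 counts outside the rule, the Pdgfra-positive cells 475. No paired analysis was possible because all the cells came from 1 section of 1 animal, and no replicate could be left out. Of 450 alternative values of named-gene ratios to the other cells, 378 stayed within the interval of the ratio, 60 moved and 12 reversed. Against Pdgfra-positive cells 58 of 63 stayed, 1 moved and 4 reversed. Of 187 list ratios 145 stayed and none reversed.

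The number of cells went from 157 to 95 with both genes required, 84 with Fn1 and Vim of at least 5, 21 with at least 20 panel counts and 341 with at least 5. The share without Pdgfra was 81.4% with at least 5 panel counts. Genes higher than in the other cells, 27 of 74 compared, became 12 of 39 with at least 20 panel counts. They were 11 of 54 in cells with 5 to 9 counts, 10 of 54 against the non-transport cells and 16 of 74 per cell. Lower genes, 18 of 74, became 10 of 54 with 5 to 9 counts and 39 of 132 with no count minimum. They were 9 of 54 against the non-transport cells, 28 of 74 per cell and 11 of 51 under thinning. Against Pdgfra-positive cells the 3 higher genes of 19 became 1 of 17 with Aqp8 and Slc26a3 at 0. They were 1 of 7 with both genes required, 1 of 16 with epithelial members left out and 2 of 11 under thinning. Fn1 and Vim of at least 2 or at least 5 gave 1 of 25 or 1 of 6. At least 5 panel counts gave 2 of 25, and no minimum gave 49 of 118. With at least 20 panel counts 0 genes could be compared, so no call was possible in either direction. With 5 to 9 counts 0 of 2 genes compared were called. The 1 lower gene of 19 became 2 of 17 with Aqp8 and Slc26a3 at 0 and 2 of 16 with epithelial members left out. It was 2 of 25 with at least 5 panel counts and 2 of 19 as a mean of cell shares. With both genes required it was 0 of 7, under thinning 0 of 11 and without a minimum 24 of 118. The causes were not tested.

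Reversals fell mainly in cells with 5 to 9 counts (184 of 1651 met the other criteria): Kcnn4 0.868, Olfm1 0.753, Tgfbr3 0.723, Zeb2 0.689, Nav3 2.26, Pcsk5 1.17 and Sema6d 1.72 against the other cells, and Cracr2a 0.290, Kcnn4 0.745 and Ptprk 1.24 against Pdgfra-positive cells. Slit3 there was 4.02. With at least 20 counts Nav3 was 1.26, Snap25 1.13 and Sncg 1.57. Snap25 was 1.34 as a mean of cell shares and Sncg 1.48 with Fn1 and Vim of at least 2. Kcnn4 against Pdgfra-positive cells was 0.982 without members with 2 or more epithelial counts, a list that holds Kcnn4.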
